A study of Caenorhabditis elegans with 4 samples.

Results

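The MED-1 binding peaks described here are those that lie in the central domains of the 6 Caenorhabditis elegans chromosomes, where meiotic recombination is known to be low. A peak of the combined list was a member when its midpoint fell within the bounds of its chromosome's centre, both ends included. On the WormBase WS180 build these bounds ran from 3.858 to 11.04 Mb on chromosome I, from 4.879 to 12.02 Mb on II and from 3.722 to 10.34 Mb on III. They ran from 3.896 to 12.97 Mb on IV, from 5.897 to 16.55 Mb on V and from 6.137 to 12.48 Mb on X. By this rule 303 of the 599 combined peaks were members, and the other 296 lay in the arms and tips. The choice used position alone, though it was made with earlier results of these data known. Recombination itself was not measured in this study, so that property of the domains could not be checked here.

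MED-1 was mapped by ChIP-seq, the sequencing of DNA that is precipitated with a protein, in embryos of a mixed population of males and hermaphrodites grown at 20 °C. The strain, OP391, carried wgIs391, an integrated transgene that encodes MED-1 with TY1, EGFP and FLAG tags at its C terminus, in an unc-119(ed3) background rescued by the unc-119(+) copy of the transgene. It was made by bombardment and outcrossed 3 times, and is a single transgenic line. All 4 samples, 2 ChIP samples precipitated with an antibody to GFP and 2 inputs taken from the lysates, share this genotype, stage and temperature, so no strain without the tagged protein stands beside them. The tag MIDEMB in the sample names is not explained by the labels, which give the stage as embryo. The labels do not say whether the replicate numbers mark separate cultures, and differences between replicates may be technical. Sequences that the transgene carries can be present in extra copies in this strain. Genes were not placed on the WS180 build here, so no peak could be tied to the transgene or to a gene.

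MED-1 binds DNA through a zinc finger of the GATA type. The maternal factor SKN-1 switches on its gene in the EMS blastomere of the early embryo, where MED-1 and its near-identical paralog MED-2 promote mesendoderm fate. Their known targets include the endoderm regulators end-1 and end-3 and, in the MS lineage, tbx-35. In C. elegans the autosome centres are rich in conserved, broadly expressed and essential genes, while the arms are richer in repeats and in chromatin marked by methylation of histone H3 lysine 9. On X the division into centre and arms is weaker. Peaks were mapped in whole embryos, in which only some cells belong to the mesendoderm, so a weak peak in many cells and a strong peak in few cells cannot be told apart.

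Each deposited peak has a position and a q-value from the PeakSeq caller, and no read count, height or summit. Strength is given here as −log10 of that q-value, a caller's score that also depends on sequencing depth, which is unknown. The list of replicate 1 held 212 sites, of which 121 had midpoints in the centres, and the list of replicate 2 held 258 sites, of which 137 did. A combined peak counted as found in a replicate when it shared at least 1 bp with a site of that list. Intervals on shares and densities are 95% exact intervals. They reflect counting error alone and assume independent peaks, which those lying close together are not.

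The centre peaks covered 118 kb, or 0.251% of the 47.01 Mb of centre sequence. Their density was 6.45 peaks per Mb (95% exact Poisson interval 5.74 to 7.21), against 5.65 per Mb (5.03 to 6.33) in the arms and tips. The length of the arms was taken up to the last peak of each chromosome, so it is understated and their density overstated by an unknown amount. The centres held 50.6% of the combined peaks (46.5 to 54.7%) on 47.3% of the length, a difference that did not pass (two-sided exact binomial test, p = 0.111). In replicate 1 the centres held 57.1% of sites (50.1 to 63.8%; exact binomial p = 0.00473), and in replicate 2 they held 53.1% (46.8 to 59.3%; exact binomial p = 0.0704). The p-values of these 3 overlapping lists were not adjusted.

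**Figure D1:**
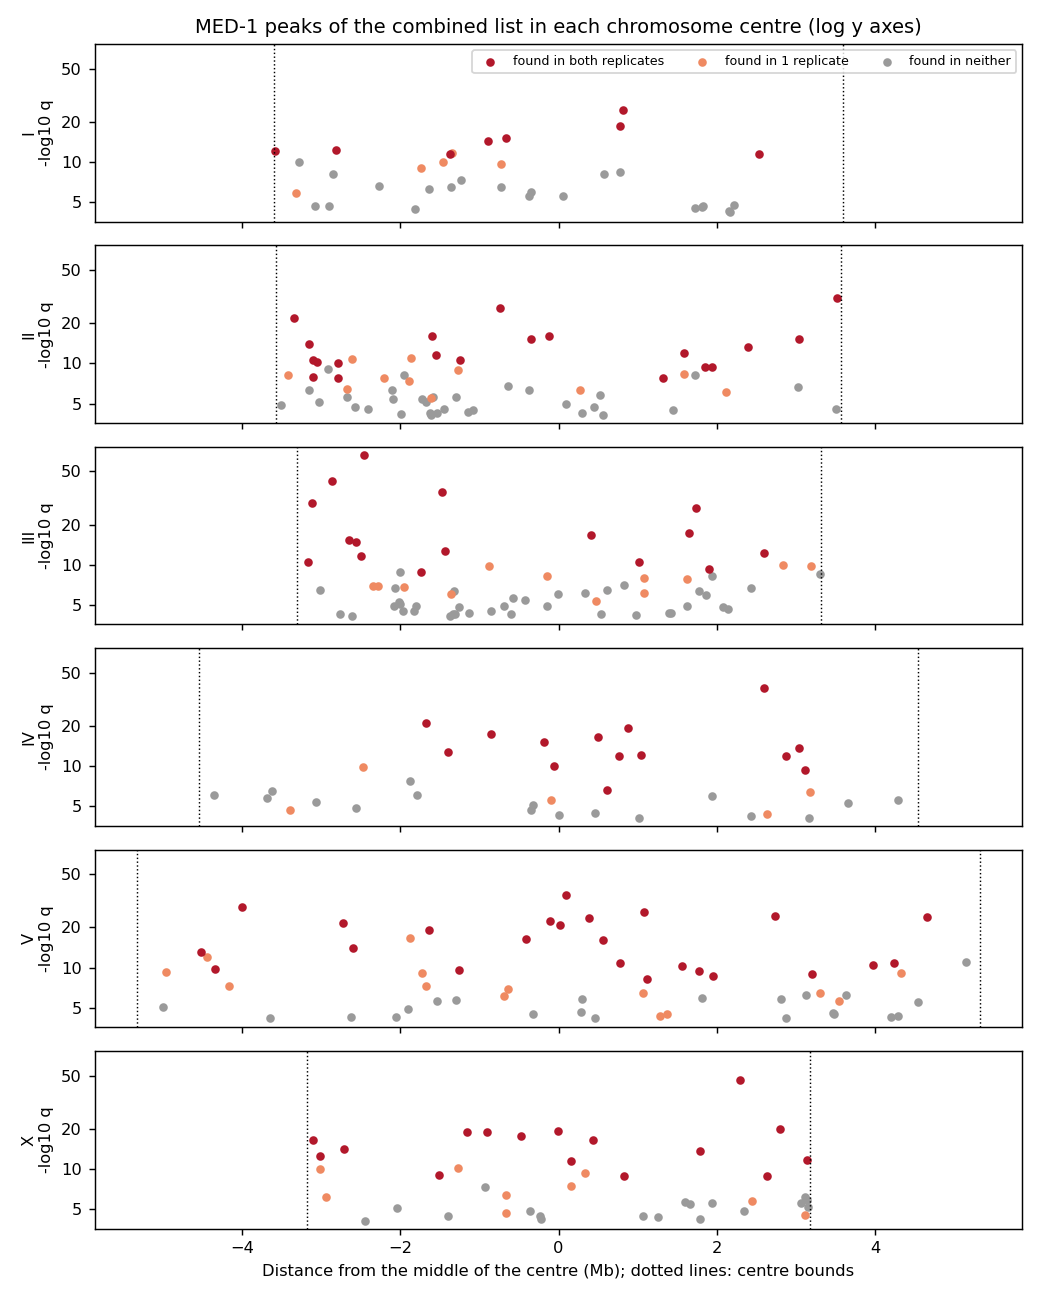
Combined MED-1 peaks in the centre of each chromosome, with distance from the middle of the centre in Mb on the x axis and −log10 q on a log y axis. Red points were found in both replicates, orange points in 1 replicate and grey points in neither, and the red points make up most of those above 10.

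In the combined list, 3 of the 6 chromosome centres held a share of the centre peaks unlike their share of the centre length. Chromosome III had 67 centre peaks, 10.1 per Mb (exact Poisson interval 7.85 to 12.9). They were 22.1% of the centre peaks on 14.1% of the centre length (exact binomial test, Benjamini-Hochberg adjusted p = 0.00108 over 6 chromosomes). Chromosome II had 63 peaks, 8.82 per Mb (6.78 to 11.3), which were 20.8% of the peaks on 15.2% of the length (exact binomial test, adjusted p = 0.0164). With peaks less than 10 kb apart merged, II no longer passed (18.9%, adjusted p = 0.139, exact binomial test). Chromosome IV was low, with 36 peaks at 3.97 per Mb (2.78 to 5.49), 11.9% of the peaks on 19.3% of the length (exact binomial test, adjusted p = 0.00231).

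The other 3 chromosomes did not pass in this test. The centre of I had 34 peaks at 4.73 per Mb (exact binomial test, adjusted p = 0.0822), that of V had 60 at 5.63 per Mb (adjusted p = 0.293) and that of X had 43 at 6.78 per Mb (adjusted p = 0.736). Because shares add up to the whole, a high share on III and II lowers the rest, and the 6 tests are not independent. None of the 6 centres passed in either replicate list, where fewer peaks were tested. In the list of replicate 1 the lowest adjusted p was 0.186 and in replicate 2 it was 0.0646 (exact binomial tests). The centre of I had the lowest density in both, with 10 sites in replicate 1, 1.39 per Mb, and 11 in replicate 2, 1.53 per Mb. That of IV was next, with 18 sites, 1.98 per Mb, and 16 sites, 1.76 per Mb. The count on III was 20 in replicate 1, 3.02 per Mb, and 24 in replicate 2, 3.63 per Mb. These were 16.5% and 17.5% of the centre sites of each list, against 22.1% of the combined centre peaks. Among combined centre peaks found in at least 1 replicate III held 18.2%, and no centre passed there (exact binomial tests). Chromosome II reached 3.36 per Mb in replicate 1 and 4.20 per Mb in replicate 2.

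The comparison of centre and arms within each chromosome was added after the values were seen. Its test assumes independent peaks, which those lying close together are not. By it the centre stood above the arms on II. Its centre had 8.82 peaks per Mb, against 4.20 per Mb (exact interval 2.91 to 5.87) in its arms and tips, so that the centre held 64.9% of the peaks on 46.9% of the length (exact binomial test, adjusted p = 0.00287 over 6 chromosomes). On V the centre had 5.63 peaks per Mb and the arms 3.73, with 61.2% of peaks on 51.1% of the length (exact binomial p = 0.0544, adjusted 0.163). In the replicate lists both chromosomes passed. Replicate 1 had 72.7% of its 33 sites of II and 73.7% of its 38 sites of V in the centre (exact binomial tests, adjusted p = 0.0165 for each). Replicate 2 had 73.2% of 41 sites of II and 74.5% of 47 sites of V there (exact binomial tests, adjusted p = 0.00369 for each). On III the values were close, with 10.1 per Mb in the centre and 9.07 in the arms (adjusted p = 0.652, exact binomial test). The centre value was the lower on I, with 4.73 against 5.58 per Mb (adjusted p = 0.652, exact binomial test), and on IV, with 3.97 against 5.24 per Mb (adjusted p = 0.52, exact binomial test). On X the densities were 6.78 per Mb in the centre and 6.64 in the arms (adjusted p = 0.923, exact binomial test).

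**Figure D2:**
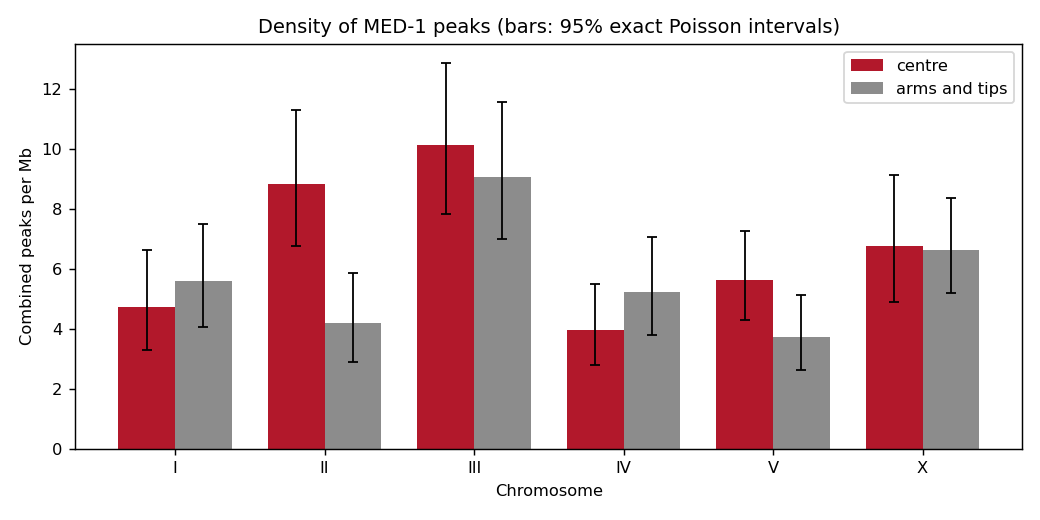
Combined MED-1 peaks per Mb by chromosome, in the centre (red) and in the arms and tips (grey), with 95% exact Poisson intervals. The centre of II, at 8.82 per Mb, stands above its arms at 4.20, and III is high in both parts.

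The placement of peaks inside the centres was described without a test. The 45 full windows of 1 Mb, counted from each lower bound, held between 1 and 18 peaks with a median of 6, and 4 windows held more than 10. Part of this range lies between chromosomes, whose window medians ran from 3 on IV to 9.5 on III. The fullest window lay on III from 4722000 to 5721999, with 18 peaks, of which 3 were found in both replicates and 12 in neither. The window before it on III, from 3722000 to 4721999, held 11 peaks, and 7 of these were found in both replicates. Over all centre peaks 32.3% were found in both replicates and 49.2% in neither, and over all combined peaks 27.9% and 51.3%. Whether windows differ from these shares was not tested. The other windows among the 5 fullest were on II, from 4879000 to 5878999 with 16 peaks, from 5879000 to 6878999 with 15 and from 6879000 to 7878999 with 10, a count that 1 window of III and 1 of V also reached. The 3 adjoining windows of II held 41 of the 63 centre peaks of II, and 11 of its 20 peaks found in both replicates. The first 2 windows of III held 29 of its 67 centre peaks. On II 44 centre peaks lay below the middle of the centre and 19 above it. On I 22 lay below the middle and 12 above it, and on III 40 and 27. On IV 18 lay on each side, on V 25 lay below the middle and 35 above it, and on X 20 and 23. Over all centres 169 lay below the middle and 134 above it.

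Neighbouring centre peaks were a median of 97.5 kb apart, and neighbouring peaks within an arm were 113 kb apart. Of the 297 gaps between neighbouring centre peaks, 28 were under 10 kb (9.43%, exact interval 6.36 to 13.3%), and 32 of 284 were in the arms (11.3%, 7.84 to 15.5%). Of these 28 close pairs 11 lay on II, 6 each on III and X, 4 on I, 1 on IV and 0 on V. In 21 of the 28 pairs at least 1 peak was found in neither replicate, and in 2 pairs both peaks were found in both replicates. Taken singly, 49.2% of all centre peaks were found in neither replicate and 32.3% in both. At least 1 unmatched peak is more likely in a pair than in a single peak, and whether close pairs differ from other centre peaks was not tested. Between neighbouring centre peaks the longest gap was 0.924 Mb on V, from 7576715 to 8500360, followed by 0.918 Mb on I from 8259753 to 9178112. The centre of I also held no peak over the 1060 kb between the midpoint of its last peak and its upper bound.

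How often a centre peak was found again in the replicates was compared with the arms and tips. Both replicates had a site at 98 of the 303 centre peaks (32.3%, exact interval 27.1 to 37.9%) and at 69 of the 296 others (23.3%, 18.6 to 28.6%), against 27.9% of all combined peaks. The difference of 9.03 percentage points missed the threshold after adjustment over the 4 shares compared (two-sided Fisher's exact test, p = 0.0141, adjusted p = 0.0564). Replicate 1 alone had a site at another 20 centre peaks (6.60%), and replicate 2 alone at 36 (11.9%). In neither replicate were 149 centre peaks found (49.2%, 43.4 to 54.95%), against 158 of the others (53.4%, 47.5 to 59.2%) and 51.3% of all (Fisher's exact test, adjusted p = 0.654). The bounds of the centres had been proposed with an excess of replicated peaks in the middle of the chromosomes already known. These shares, here and in every split or alternative below, are therefore no independent support for it. Nor are the centre shares of the replicate lists given above.

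The shares were also taken by strength, in 4 groups of 25% of the combined list each. Among the strongest 25% of the combined list, both replicates had 73 of 79 centre peaks (92.4%, exact interval 84.2 to 97.2%) and 55 of 71 others (77.5%, 66.0 to 86.5%). In the second group they had 25 of 72 centre peaks (34.7%, 23.9 to 46.9%) and 13 of 78 others (16.7%, 9.18 to 26.8%). In the third group the counts were 0 of 74 centre peaks and 1 of 76 others, and in the weakest 0 of 78 centre peaks and 0 of 71 others. In the stronger 50% of the list the shares were 64.9% of centre peaks and 45.6% of the others (Fisher's exact test, adjusted p = 0.00445).

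**Figure D3:**
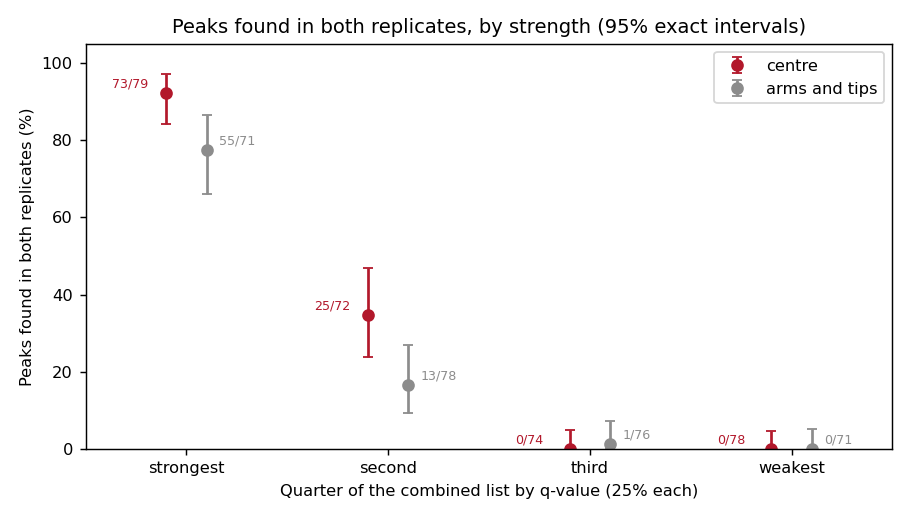
Share of combined peaks found in both replicates by strength, in groups of 25% of the list by q-value, for the centre (red) and the arms and tips (grey), with 95% exact intervals and counts. Centre peaks were found again at 92.4% in the strongest group and 34.7% in the second, against 77.5% and 16.7% in the arms and tips.

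The same comparison was made from the replicate lists. Replicate 2 had 137 centre sites, and 98 of them were matched in replicate 1, a share of 71.5% (63.2 to 78.9%), against 69 of its 121 sites in the arms and tips (57.02%, 47.7 to 66.0%) and 64.7% of all its sites (Fisher's exact test, p = 0.0187, adjusted over both lists 0.0374). Replicate 1 had 121 centre sites, and 98 of them were matched in replicate 2, a share of 81.0% (72.9 to 87.6%), against 69 of 91 in the arms and tips (75.8%, 65.7 to 84.2%) and 78.8% of all (Fisher's exact test, adjusted p = 0.399). Both comparisons use the same 167 shared sites. With the bounds moved outward by 250 kb the difference in replicate 2 no longer passed (70.5% and 57.1%, Fisher's exact test, adjusted p = 0.0703). With the middle 50% of each span as the centre it was smaller and did not pass (68.0% and 60%, Fisher's exact test, adjusted p = 0.465).

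By chromosome, both replicates had 24 of the 60 centre peaks of V (40%, exact interval 27.6 to 53.5%) and 7 of the 38 in its arms (18.4%, 7.74 to 34.3%). On IV they had 14 of 36 centre peaks (38.9%) and 9 of 43 others (20.9%), on X 16 of 43 centre peaks (37.2%) and 21 of 72 others (29.2%), and on II 20 of 63 centre peaks (31.7%) and 6 of 34 others (17.6%). On I the counts were 8 of 34 centre peaks (23.5%) and 10 of 44 others (22.7%), and on III 16 of 67 centre peaks (23.9%) and 16 of 65 others (24.6%). Chromosome III, with the densest centre, had one of the lower shares. Counted as density, centre peaks found in both replicates ranged from 1.11 per Mb on I to 2.80 on II, with III at 2.42, X at 2.52, V at 2.25 and IV at 1.54 per Mb. The exact Poisson intervals of I (0.481 to 2.19) and II (1.71 to 4.33) overlap. Differences between chromosomes in these shares were not tested.

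Peaks of the centres were not called stronger or wider than the others. Their −log10 q had a median of 6.51 and ran from 4.11 to 66.4, against a median of 6.64 in the arms and tips, where it ran from 4.11 to 271. Among the strongest 25% of the list were 79 centre peaks (26.1%) and 71 others (24.0%), beside 25% of all by definition (Fisher's exact test, adjusted p = 0.763). Median width was 319 bp in the centres and 301 bp elsewhere, and 76 centre peaks (25.1%) and 75 others (25.3%) were at or above the 75th percentile of width, as were 25.2% of all (Fisher's exact test, p = 1). On X the centre peaks had a median −log10 q of 6.43 and the others 8.19, and on IV 6.26 and 7.12. The centre median was the higher on V (7.81 and 6.47), II (6.64 and 5.32), I (6.99 and 6.46) and III (6.31 and 6.21). These differences by chromosome were not tested.

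Within the centres, strength went with being found again. Peaks found in both replicates had a median −log10 q of 13.8 and a median width of 368 bp, those with a site in replicate 1 alone 6.66 and 341.5 bp, those with a site in replicate 2 alone 7.51 and 296 bp, and those with none 4.93 and 269 bp. The combined list appears to rest on the same samples, so this order describes the lists.

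The 12 strongest centre peaks had −log10 q between 26.1 and 66.4, and all 12 were found in both replicates. Of these, 5 lay on III, 3 on V, 2 on II and 1 each on IV and X. They were between 327 and 949 bp wide, with a median of 370.5 bp, and 6 of them were among the 12 strongest peaks of the whole genome. Centre peaks made up 29 of the 50 and 54 of the 100 strongest combined peaks, beside 50.6% of all combined peaks. These counts were not tested.

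The strongest centre peak lay on III from 4568524 to 4568891, with −log10 q of 66.4 in the combined list (written "combined" hereafter), 34.4 in replicate 1 and 38.1 in replicate 2. It ranked second in all 3 lists. The same end of that centre held 3 others of the 12. The one from 4170969 to 4171335 had 42.5 combined, 19.3 in replicate 1 and 17.6 in replicate 2, and the one from 5554893 to 5555253 had 35.1, 15.03 and 23.8. The one from 3916623 to 3916966 had 29.2 combined, 12.9 in replicate 1 and 18.0 in replicate 2. These 4 peaks, the strongest included, lay at most 1.83 Mb above the lower bound of the centre of III, while the fifth of this chromosome, from 8767857 to 8768183, lay 5.05 Mb above it (26.8 combined, 12.9 in replicate 1 and 17.2 in replicate 2).

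On X the peak from 11605465 to 11606413, the widest of the 12 at 949 bp, had 46.6 combined, 27.6 in replicate 1 and 21.5 in replicate 2. On IV the peak from 11025801 to 11026430 had 38.7 combined, 16.6 in replicate 1 and 24.2 in replicate 2. On V the peak from 11313980 to 11314477 lay 0.0907 Mb from the middle of the centre and had 34.8, 19.6 and 20.8 in the same order. The other 2 of V ran from 7230840 to 7231195 (28.4, 15.04 and 19.1) and from 12303418 to 12303823 (26.1, 13.6 and 15.5). On II they ran from 11960536 to 11961083 (31.0, 15.3 and 16.9), close to the upper bound, and from 7708501 to 7708873 (26.2, 12.3 and 16.6). The strongest centre peak of I, from 8259373 to 8259753, ranked 13 among the centre peaks with 24.6 in the combined list. Its replicates were far apart, with 6.44 in replicate 1 and 14.4 in replicate 2.

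Over the 98 centre peaks found in both replicates, Spearman's rho between the replicate strengths was 0.67 and Pearson's r 0.87, given as a description across sites that share 2 libraries. Over the 69 such peaks of the arms and tips rho was 0.63 and r 0.99. Without the 10 strongest pairs of each part, rho was 0.54 and r 0.62 in the centres, and rho 0.42 and r 0.60 in the arms and tips. Replicate 2 gave the larger value at 63 of the 98 centre peaks, and the median of replicate 2 minus replicate 1 was 0.853 (middle 50% from −0.444 to 2.30). The largest difference in that direction was 8.72, on III from 5554893 to 5555253. The largest in the other was −6.16, at the strong X peak. In the arms and tips replicate 2 gave the larger value at 37 of 69 peaks, with a median difference of 0.242. The 2 strengths were not formed alike. Of the 212 sites of replicate 1, 209 kept the smallest q-value of several lines, while each site of replicate 2 was a single line. The combined value was above both replicate values at 97 of the 98 centre peaks, and its median was 0.944 of their sum. In the arms and tips these values were 67 of 69 peaks and 0.948.

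**Figure D4:**
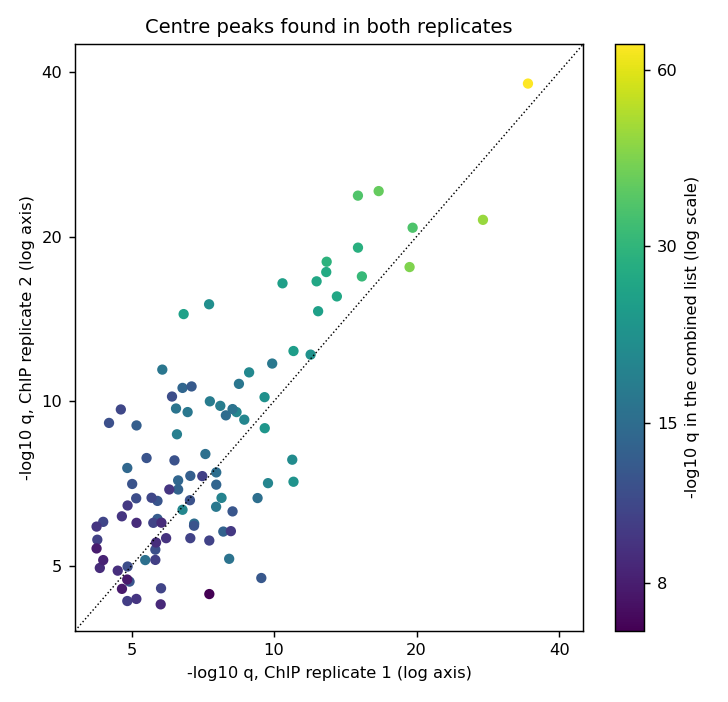
Strength (−log10 q) of the 98 centre peaks found in both replicates, with replicate 1 on the x axis and replicate 2 on the y axis, both log axes, and the combined value in colour. The dotted line marks equal values, and 63 of the points lie above it.

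The 149 centre peaks found in neither replicate had −log10 q from 4.11 to 10.9. The strongest of them lay on V from 16369832 to 16370430 (10.9), 180 kb inside the upper bound, and on I from 4171920 to 4172566 (9.99). The next were on II from 5543462 to 5543902 (9.02) and on III from 5031359 to 5031820 (8.80) and from 10333899 to 10334194 (8.52). The last of these is the peak nearest to any bound from the inside, 5.95 kb below the upper bound of III. The 3 narrowest centre peaks, of 3, 24 and 27 bp, were all on III and were found in neither replicate.

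A peak found in 1 replicate was singled out after its values were seen. On V, the peak of 1510 bp from 9343107 to 9344616 had −log10 q of 16.7 in the combined list and 4.96 in replicate 2, and overlapped no site of replicate 1. On II, also singled out after the values were seen, 5 peaks each less than 10 kb from the next filled a stretch of 27.5 kb from 6831720 to 6859181. One of them, from 6852971 to 6853398, was found in both replicates (15.9 combined, 8.17 in replicate 1 and 9.67 in replicate 2). The others had combined values from 4.14 to 5.63, and 3 of these 4 were found in neither replicate.

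The 3 widest centre peaks all lay in a single stretch of X, 41.3 kb from 12416947 to 12458286, with 5 peaks that covered 12.4 kb. Those were 10.5% of all bases under centre peaks. The widest, of 5998 bp from 12422647 to 12428644, had −log10 q of 6.15 and was found in neither replicate. The peak of 2480 bp from 12444191 to 12446670 had 11.8 combined, 6.64 in replicate 1 and 6.59 in replicate 2. The peak of 1976 bp from 12439420 to 12441395 had 5.92 and was found in neither. The first of the stretch, from 12416947 to 12418638, had 4.56 in the combined list and 4.24 in replicate 1, and the last, from 12458033 to 12458286, had 5.18 and was found in neither. In the stretch 4 peaks were wider than 1000 bp, out of 8 such centre peaks, and 9 were found in the arms and tips. Whether the stretch holds sequence that the transgene carries in extra copies was not tested.

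**Figure D5:**
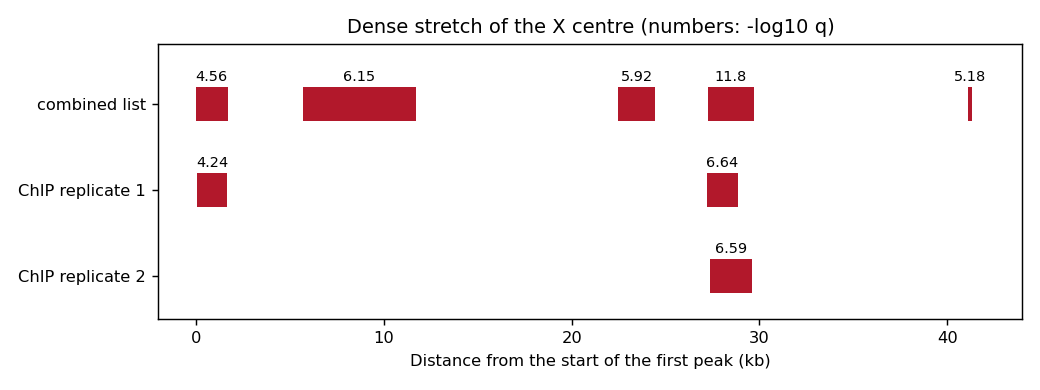
The dense stretch of the X centre as each of the 3 lists gives it, with distance from the start of its first peak in kb on the x axis and −log10 q above each peak. The combined list holds 5 peaks, replicate 1 holds 2 and replicate 2 holds 1.

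At the 12 bounds, the nearest peak inside lay between 5.95 and 1060 kb from the bound and the nearest outside between 27.2 and 344 kb. Their −log10 q ran from 4.90 to 31.0 inside, with a median of 9.48, and from 4.25 to 13.9 outside, with a median of 5.64. At the upper bound of II the inside peak, from 11960536 to 11961083, was 59.2 kb from the bound and had 31.0, and the outside peak, from 12107824 to 12107999, was 87.9 kb from it and had 4.25. The outside peak was the stronger at the lower bound of II (4.90 inside, 8.58 outside) and at the upper bound of X (5.18 and 10.3). At every other bound the inside peak was the stronger. Over all peaks the median was 6.51 in the centres and 6.64 elsewhere, and the difference at the bounds was not tested.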

How the data were processed

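Peak lists were analysed for both MED-1 ChIP samples and for a list named as combined. Input samples have no list here and were not analysed. Per the file headers, the lists are PeakSeq binding sites on WormBase WS180, and the value deposited for each site is a q-value, at most 7.83e-05 in any list. The sources used here do not name the aligner, the PeakSeq version, its threshold, the control library or the way of combining. Sequencing depth is unknown.

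In replicate 1, 421 lines were merged into 212 sites wherever lines shared at least 1 bp, with the smaller q-value kept. A peak was assigned by the integer mean of its ends. Shares were compared by two-sided Fisher's exact tests, adjusted by Benjamini-Hochberg over 4 shares, and densities by two-sided exact binomial tests. The peaks named were the 12 strongest centre peaks, the strongest of each chromosome, the 5 strongest found in neither replicate, the 3 widest and 3 narrowest, those nearest each bound and the 5 fullest windows of 1 Mb. The members, tests and lists were chosen with earlier results of these data known. Alternatives moved the bounds by 250 kb, changed the overlap, the list or the chromosomes, or merged peaks under 10 kb apart. Some could not change a value. The lines of replicate 1 left unmerged cover the same bases, and leaving out the dense stretch of X keeps the centre shares within the other chromosomes. The comparisons of centre and arms within a chromosome, and of sites between the replicate lists, were added after the values were seen. Fisher's exact test was checked on simulated counts of independent peaks. Matching and merging were checked on shifted or doubled copies of the combined list. The exact binomial tests were not checked in this way. Python 3.11.15, numpy 2.4.6, pandas 2.3.3, scipy 1.17.1 and matplotlib 3.10.9 were used. No sequence of the peaks is shown, since no genome of this build was used here.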

Additional observations from a re-analysis of the deposited data

How the results depend on the processing

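Of 177 alternative values, 145 kept the call, though many had none to lose and some could not change. None reversed a called direction. On II the share of centre peaks lost its call 5 times and kept it 3, on III 4 and 4, on IV 3 and 5. The difference between centre and other peaks in the share found in both replicates, 9.03 points in the main analysis, was positive in each alternative run. It was 19.3 points in the stronger 50% of the list (adjusted p = 0.00445), 9.19 with the middle 50% of each span as the centre (0.0281), and, in settings added after seeing the data, 10.04 without chromosome I (0.0472) and 11.8 without III (0.0232), all past the threshold by Fisher's exact test. It did not pass in the other 12 alternatives. Without chromosome V it was 6.42 points (adjusted p = 0.437), without IV 7.75 (0.202) and without II 8.45 (0.149, Fisher's exact tests). These settings were also added after the data were seen. With peaks under 10 kb apart merged it was 8.02 (0.202), and with the bounds moved inward 8.00 (0.142) or outward 8.33 (0.112, Fisher's exact tests). With a match to 1 replicate alone the difference ranged from 4.36 without replicate 1 to 8.88 without replicate 2. The share found in neither passed only with the middle 50% of each span (−10.1 points, Fisher's exact test, adjusted p = 0.0281; leaving out a replicate gave −8.88 to −4.36). In the strongest 25% the difference ranged over all alternatives from −8.18 without replicate 2 to 5.82 on autosomes only (5.42 without replicate 1). In the widest 25% it ranged from −8.18 without replicate 2 to 5.84 with the widest 50% in its place (−0.0724 without replicate 1). Neither passed the threshold in any, and the direction of both changed between settings. The centre share of peaks passed with the middle 50% of each span (54.1%, exact binomial p = 0.0498) and in the list of replicate 1 (57.1%, without replicate 2), and not in that of replicate 2 (53.1%, without replicate 1). Over all alternatives it ranged from 46.7% with bounds moved inward, which shortens the centres, to 57.1%. Of the 3 chromosomes that passed (II, III and IV), 1 passed in the stronger 50% of the list (IV), and 0 passed among peaks found in at least 1 replicate or in either replicate list (0 without replicate 1, 0 without replicate 2), all with fewer peaks tested. With peaks under 10 kb apart merged, II no longer passed (18.9%, exact binomial test, adjusted p = 0.139) and I passed with bounds moved outward by 250 kb (10.8%, adjusted p = 0.0312, exact binomial test). The excess of II over its own arms passed in each alternative run, with 59.8 to 73.2% of its peaks in the centre. Without the 10 strongest pairs rho was 0.54, and 16.2% of gaps were under 20 kb. The dense stretch of X changed no call when left out. The cause of these changes was not tested. The difference in sites of replicate 2 matched in replicate 1 was 7.97 points with the middle 50% of each span. No paired analysis was possible because no list of the inputs was used here. Unknown depth and only 2 ChIP samples limit what shares found again can show.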
